A study of Mus musculus with 6 samples.

Results

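Synaptotagmins are membrane proteins that carry paired C2 domains and couple calcium entry to the fusion of vesicles. Syt1 and Syt2 trigger fast transmitter release from synaptic vesicles. Syt7 binds calcium with high affinity and serves slower, asynchronous release and facilitation. Syt4, Syt11, Syt13 and Syt17 belong to the same family but their C2 domains are thought to bind little or no calcium, and they are mostly linked to membrane traffic. The 10 genes described here, Syt1, Syt2, Syt3, Syt4, Syt5, Syt6, Syt7, Syt11, Syt13 and Syt17, were taken by gene name from a table of 47729 genes, and the table lists 44 transcripts for them.

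Ribosome-associated RNA was sequenced from 3 Ctrl samples and from 3 samples of the condition Gsk3sKO in mPFC D2. All mice were C57BL/6 males of the D2Cre/LSL-Flag-Cas9/RiboTag line, aged 2.5 to 3 months at injection, and the mPFC was dissected 3 weeks after injection. Every mouse of both groups therefore carried Cas9 and the hemagglutinin-tagged Rpl22 ribosomal subunit in cells that express the D2Cre bacterial artificial chromosome transgene. Ctrl mice received AAV GFP, which has no sgRNA, and the others received AAV Gsk3sgRNA/GFP, so delivery of an sgRNA and loss of Gsk3b cannot be told apart. RiboTag immunoprecipitation pulls down tagged ribosomes with the RNA bound to them. Values are FPKM, that is fragment counts scaled to transcript length and to the number of mapped fragments, and a gene total adds up the FPKM of every transcript a gene has in the table. In such bulk samples, fewer cells of a type and less RNA per cell cannot be told apart. The sources read here do not say whether a library came from 1 mouse or from a pool, so p-values measure the spread between these libraries only.

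The libraries held between 40787 and 55841 transcripts above 0, and no read counts were used, so the depth behind each value is unknown. The main Gsk3b transcript, ENSMUST00000023507, averaged 34.8 ± 1.35 FPKM in Ctrl against 22.5 ± 2.0 FPKM in Gsk3sKO (SD, n = 3 each), with no overlap between groups. Of all transcripts tested, 6.96% were lower in Gsk3sKO without overlap. The other tested Gsk3b transcript, ENSMUST00000114750, overlapped, at 1.85, 18.7 and 20.0 FPKM in Ctrl and 11.9, 15.4 and 12.5 FPKM in Gsk3sKO. The Gsk3b gene total overlapped as well, from 35.6 to 56.5 FPKM in Ctrl and from 33.6 to 37.0 FPKM in Gsk3sKO. The neuronal marker Snap25 stood between 991 and 1134 FPKM. Slc17a7, named after its values were seen, ranged from 262 to 273 FPKM in Ctrl and from 192 to 261 FPKM in Gsk3sKO. It was the 1 of 4 neuronal markers without overlap between groups, against 12% of all gene totals. Drd2, the gene that names the cells, ranged from 1.58 to 14.1 FPKM and was lowest in Ctrl replicate 1. At an unadjusted limma p under 0.05, 0 of 4 neuronal, 0 of 6 interneuron, 0 of 5 dopaminoceptive, 0 of 6 astrocyte and 0 of 6 endothelial marker genes were called, against 6.56% of all gene totals tested. Among oligodendrocyte markers 3 of 6 were called lower in Gsk3sKO, and among microglia markers 1 of 5 tested, against 5.20% of all gene totals called lower. These were Cnp, Mag and Mog, proteins of myelin, and C1qa, a complement component, all named after their values were seen. The summed oligodendrocyte markers ranged from 118 to 183 FPKM in Ctrl and from 128 to 165 FPKM in Gsk3sKO, and Mog was listed at 0 in Gsk3sKO replicates 2 and 3. The summed microglia markers ranged from 14.2 to 25.3 FPKM in Ctrl and from 12.4 to 15.4 FPKM in Gsk3sKO. The part of these markers in the synaptotagmin values was not tested.

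Of 21 synaptotagmin transcripts tested, 4 had groups that did not overlap, against 11.2% of all tested transcripts. At an unadjusted limma p under 0.05, 1 of the 21 was called, against 5.56% of all, and 0 had an adjusted p under 0.05. These 4 differ from other transcripts of their genes, among other stretches, in their start site, in 1 coding exon or in their coding start. The stretches named are shown first. Syt2, on chromosome 1, has 2 start sites whose transcripts share the same coding sequence of 1266 bases. Syt1, on chromosome 10, has an outer start and a second start further inside the gene. The 250 bases before each start were taken from RefSeq for GRCm38.p6, where the upstream Syt2 start lies shortly before that of the GENCODE transcript. They are shown because transcripts of the upstream Syt2 start and of the inner Syt1 start are among those whose groups did not overlap. Capitals mark GC boxes (GGGCGG or its reverse complement) and CCAAT boxes (CCAAT or its reverse complement).
Syt2, upstream start, chr1:134646362-134646611, + strand: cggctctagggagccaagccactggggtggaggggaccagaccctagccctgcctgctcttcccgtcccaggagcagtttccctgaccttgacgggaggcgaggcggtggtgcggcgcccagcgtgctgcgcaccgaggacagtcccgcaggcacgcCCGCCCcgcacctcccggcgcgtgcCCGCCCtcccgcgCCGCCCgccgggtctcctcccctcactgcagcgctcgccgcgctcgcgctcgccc
Syt2, downstream start, chr1:134709050-134709299, + strand: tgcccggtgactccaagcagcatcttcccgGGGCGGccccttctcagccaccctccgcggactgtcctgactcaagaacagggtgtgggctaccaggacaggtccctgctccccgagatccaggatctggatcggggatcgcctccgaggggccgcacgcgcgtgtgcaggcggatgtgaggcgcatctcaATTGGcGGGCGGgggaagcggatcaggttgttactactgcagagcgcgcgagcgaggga
Syt1, outer start, chr10:109010976-109011225, - strand: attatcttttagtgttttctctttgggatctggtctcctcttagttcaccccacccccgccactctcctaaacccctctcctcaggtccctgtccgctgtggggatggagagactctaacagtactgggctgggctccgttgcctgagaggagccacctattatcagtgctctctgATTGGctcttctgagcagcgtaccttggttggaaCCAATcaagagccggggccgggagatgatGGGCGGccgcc
Syt1, inner start, chr10:109009112-109009361, - strand: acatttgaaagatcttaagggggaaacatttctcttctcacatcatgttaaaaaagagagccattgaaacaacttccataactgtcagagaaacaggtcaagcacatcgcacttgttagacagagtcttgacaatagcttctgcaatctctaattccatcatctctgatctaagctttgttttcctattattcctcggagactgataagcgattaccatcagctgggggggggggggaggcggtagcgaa

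The upstream Syt2 window held 3 GC boxes and was 76.0% G and C, and the downstream window held 2 GC boxes and 1 CCAAT box at 66.4%. The outer Syt1 window held 1 GC box and 2 CCAAT boxes at 56.4%, while the inner window held neither motif and was 42.8% G and C. Among 32851 promoter windows of the same length, read on both strands, 32.7% held a GC box and 33.8% a CCAAT box, and the median window was 52.4% G and C. These matches describe letters in a window and are not evidence of binding. Promoter windows were found for 5 of the 10 genes. In GENCODE M21, on GRCm38, Syt1 spans chr10:108497650-109010982 on the - strand, Syt2 chr1:134646677-134762593 on the + strand, Syt7 chr19:10389090-10453180 on the + strand and Syt17 chr7:118380717-118448222 on the - strand. Syt2 overlaps Ppp1r12b on the other strand, and Syt1 and Syt7 overlap predicted genes on either strand. Libraries were made with a stranded kit, but whether strand was used in counting is not given in the sources used here, so overlapping reads may not have been told apart.

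For Syt7, on chromosome 19, the 3 listed transcripts differ, among other stretches, in their inner coding exons. ENSMUST00000169121 carries 4 coding exons, 852 bases in all, that the shortest form ENSMUST00000073899 lacks. ENSMUST00000076968 carries 3 of them and lacks the exon of 228 bases shown here in capitals, between 15 bases of its neighbors in lower case, from the GENCODE M21 transcript.
Syt7 exon 5 of ENSMUST00000169121, chr19:10422785-10423012, + strand: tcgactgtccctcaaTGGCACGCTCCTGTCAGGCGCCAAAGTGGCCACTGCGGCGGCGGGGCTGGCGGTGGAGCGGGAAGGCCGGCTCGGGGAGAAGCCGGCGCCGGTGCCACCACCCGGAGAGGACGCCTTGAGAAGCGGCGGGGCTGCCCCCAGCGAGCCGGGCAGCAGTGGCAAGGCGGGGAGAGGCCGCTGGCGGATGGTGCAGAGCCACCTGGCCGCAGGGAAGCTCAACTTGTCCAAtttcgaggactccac

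For Syt17, on chromosome 7, the main transcript ENSMUST00000081574 starts its coding sequence 171 bases ahead of ENSMUST00000203796, which begins at a first exon further upstream. The coding bases that only the former is annotated to translate are shown with the start codons of both forms in capitals. They were joined from the exons between 118436971 and 118443348, on the - strand.
Syt17 coding start of ENSMUST00000081574: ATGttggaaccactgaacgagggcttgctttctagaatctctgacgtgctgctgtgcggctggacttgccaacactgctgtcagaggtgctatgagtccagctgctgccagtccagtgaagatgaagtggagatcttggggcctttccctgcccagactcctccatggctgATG

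**Figure D1:**
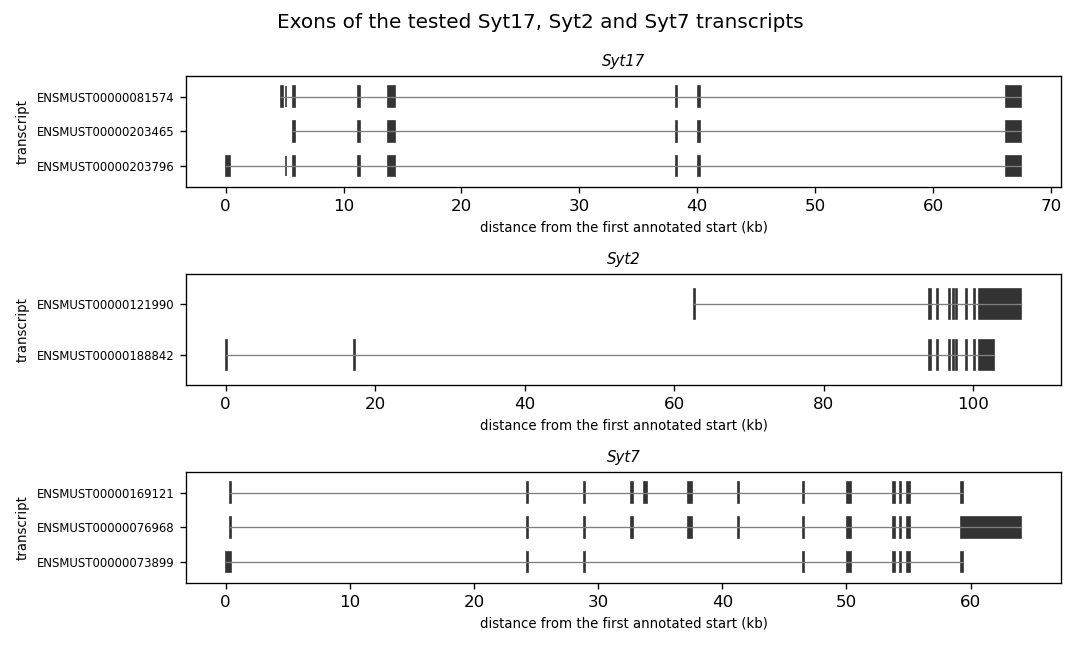
Exons (boxes, to scale) of the tested transcripts of Syt17, Syt2 and Syt7 against the distance in kb from the first annotated start of each gene, in the direction of transcription. The Syt17 transcript ENSMUST00000203796 and the Syt2 transcript ENSMUST00000188842 start furthest upstream. The Syt7 transcripts differ in 4 inner exons and in the lengths of their first and last exons.

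To ask whether knockout of Gsk3b in mPFC D2 neurons changed the amount of any synaptotagmin RNA on ribosomes, gene totals were compared. Syt1 RNA was the most abundant in every library and Syt6 RNA the least. No member gene total passed the test. At an unadjusted limma p under 0.05, 0 of 10 members were called, against 6.56% of the 12874 gene totals tested (175 higher and 669 lower, or 254 higher and 549 lower when libraries were rescaled by their median ratio). The smallest unadjusted limma p of the 10 members was 0.168. Their p adjusted over all gene totals lay between 0.824 and 0.991, and 6 of the 12874 gene totals had an adjusted p under 0.05. Groups without overlap, where all 3 libraries of one condition lie above all 3 of the other, were seen for 0 of 10 members, against 12% of all gene totals. By limma, 5 members had a positive and 5 a negative log2 fold change, with a median of 0.02, and the median of all gene totals was -0.06. Without the moderation of variances 0 members were called as well.

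Syt1, the main sensor for fast release in forebrain neurons, was at 448, 471 and 502 FPKM in Ctrl, and 516, 482 and 575 FPKM in Gsk3sKO. It made up between 50.6% and 59.2% of the FPKM summed over the 10 members in every library, and it exceeded 99.6% of all tested gene totals. The Gsk3sKO libraries were on the high side but overlapped with Ctrl, and the log2 fold change was 0.14 with a 95% interval from -0.17 to 0.46 (limma unadjusted p = 0.32). Syt2, the fast sensor best known from brainstem and parvalbumin neurons, was far lower, at 8.74, 10.9 and 10.2 FPKM in Ctrl and 14.1, 12.6 and 10.3 FPKM in Gsk3sKO. Gsk3sKO replicate 3 lay below the highest Ctrl library, and the log2 fold change was 0.28 with an interval from -0.15 to 0.71. The parvalbumin gene Pvalb, read from the interneuron markers, lay between 21.7 and 28.5 FPKM over the 6 libraries. Syt5, another calcium-binding member of vesicles, was at 119, 109 and 124 FPKM in Ctrl and 122, 113 and 101 FPKM in Gsk3sKO. Its groups overlapped, with a log2 fold change of -0.07.

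Syt7 totaled 36.1, 31.2 and 39.4 FPKM in Ctrl and 43.3, 38.3 and 33.1 FPKM in Gsk3sKO, and the 2 groups covered nearly the same range. The log2 fold change of its gene total was 0.10 with an interval from -0.26 to 0.46. Syt3 and Syt6, which form disulfide-linked dimers and bind calcium, were among the low members. Syt3 was at 13.8, 13.3 and 12.5 FPKM in Ctrl and 13.3, 10.2 and 9.08 FPKM in Gsk3sKO. Gsk3sKO replicate 1 stood within the Ctrl range while the other 2 lay below it, and the log2 fold change was -0.27 with an interval from -0.70 to 0.15. Syt6 was the lowest member, at 1.05, 2.86 and 5.71 FPKM in Ctrl and 2.96, 3.97 and 2.1 FPKM in Gsk3sKO. Its Ctrl libraries spread more widely than the groups differed, and the interval of its log2 fold change ran from -0.93 to 1.06.

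Among the members thought to bind little calcium, Syt11, which is linked to endocytosis, was at 113, 109 and 133 FPKM in Ctrl, and 127, 128 and 97.2 FPKM in Gsk3sKO. Syt4, which sits on dense-core vesicles and Golgi membranes, was at 67.3, 70.2 and 81.4 FPKM in Ctrl, and 80.0, 70.7 and 79.3 FPKM in Gsk3sKO. The groups of both genes overlapped, with log2 fold changes of -0.02 for Syt11 and 0.07 for Syt4. That of Syt11 changed sign to 0.03 when libraries were rescaled by their median ratio. Syt13 was at 47.4, 47.1 and 45.0 FPKM in Ctrl and 46.3, 45.3 and 35.8 FPKM in Gsk3sKO, where replicate 3 alone lay well below the others. Syt17 was at 28.3, 37.0 and 39.7 FPKM in Ctrl and 32.1, 28.9 and 28.2 FPKM in Gsk3sKO. Its log2 fold change was -0.22 with an interval from -0.59 to 0.16 (limma unadjusted p = 0.223). Ctrl replicate 1 had the lowest Ctrl value, and leaving it out gave -0.36 (limma unadjusted p = 0.0394, adjusted p = 0.885).

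**Figure D2:**
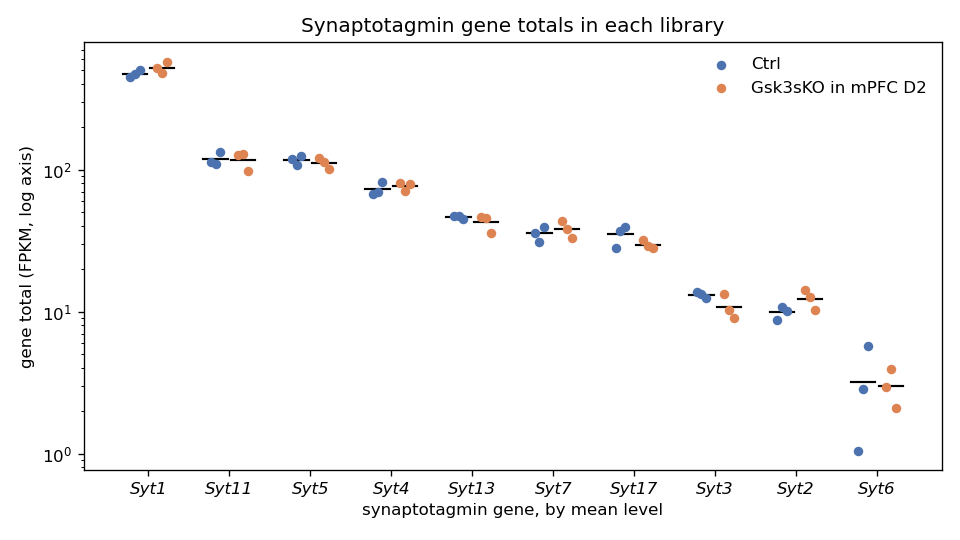
Gene totals of the 10 synaptotagmins in FPKM on a log axis, with 1 point per library and a bar at the mean of each group. Syt1 stands between 448 and 575 FPKM, above every other member, and the 2 groups overlap for all 10 genes.

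The mean gene totals over the 6 libraries, which are scaled to transcript length, ran from 499 ± 44.4 FPKM (SD, n = 6) for Syt1 to 3.11 ± 1.6 FPKM (SD, n = 6) for Syt6. After Syt1 came Syt11 with 118 ± 13.6, Syt5 with 114 ± 8.83 and Syt4 with 74.8 ± 6.06 FPKM (SD, n = 6). Below them stood Syt13 with 44.5 ± 4.34, Syt7 with 36.9 ± 4.39 and Syt17 with 32.4 ± 4.92 FPKM (SD, n = 6). Syt3 with 12 ± 1.92 and Syt2 with 11.1 ± 1.93 FPKM (SD, n = 6) came next. The ranges of neighbors in this order overlapped for Syt11 and Syt5, for Syt13 and Syt7, for Syt7 and Syt17, and for Syt3 and Syt2. Syt13 was nevertheless above Syt7 in 6 of 6 libraries, while Syt3 was above Syt2 in 3 of 6. Coding sequences were compared for the most abundant tested coding transcript of each member. Those of Syt1 and Syt2, the most alike pair, were identical at 77.6% of 1229 aligned bases. The longest identical coding stretch between any of these transcripts was 26 bases. Bases outside the coding sequence and other transcripts were not compared.

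The tested gene totals most like Syt1 over the 6 libraries were Exosc2, Enox1 and Purb. Likeness was the root mean square difference of log2(FPKM + 1) after each gene was centered, which was 0.03 for Exosc2 and 0.04 for Enox1 and Purb. These genes were picked as the nearest among 12874 gene totals tested over 6 values, so their likeness does not show a link to Syt1.

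**Figure D3:**
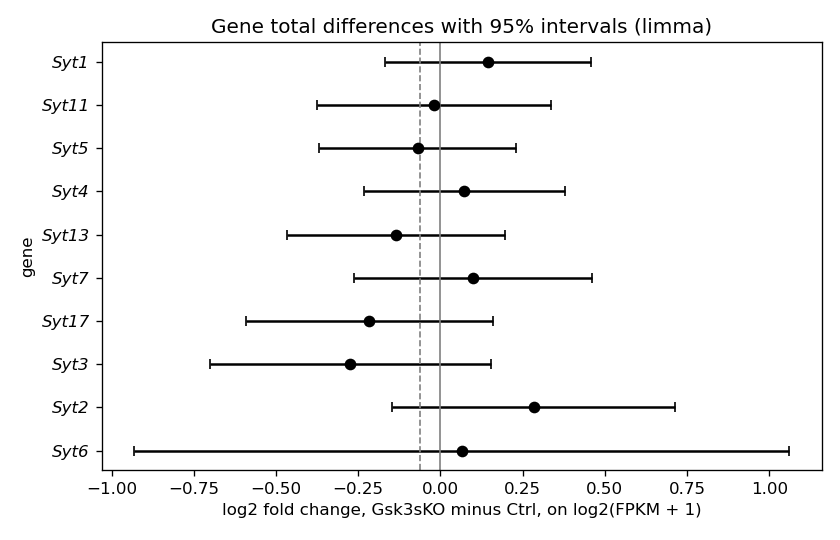
Log2 fold change of each gene total (points, Gsk3sKO minus Ctrl, on log2(FPKM + 1)) with its 95% interval from limma. The solid line is at 0 and the dashed line at the median of all gene totals, -0.06, and every interval includes 0.

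Transcripts were compared next, since a gene total can hide a shift between its transcripts. Of the 44 listed transcripts 41 were above 0 in at least 1 library, and 21 had a mean of at least 1 FPKM and were tested. A lower level of 1 upstream-start transcript of Syt17 was the only call. At an unadjusted limma p under 0.05, 1 of 21 was called, against 5.56% of all 21584 transcripts tested (3.75% lower in Gsk3sKO), and 0 had an adjusted p under 0.05, against 0% of all transcripts tested. The groups did not overlap for 4 of 21, 3 of them higher and 1 lower in Gsk3sKO, against 11.2% of all tested transcripts (4.28% higher and 6.96% lower). The median log2 fold change of the 21 was 0.02, and that of all tested transcripts -0.06.

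The Syt17 transcript ENSMUST00000203796 has 8 exons and a coding sequence of 1239 bases, and starts at position 118448219 of chromosome 7. It was at 7.70, 4.83 and 11.3 FPKM in Ctrl, and 1.11, 0 and 0.485 FPKM in Gsk3sKO. All 3 Gsk3sKO libraries lay below every Ctrl library, with means of 7.95 ± 3.25 FPKM in Ctrl against 0.531 ± 0.556 FPKM in Gsk3sKO (SD, n = 3 each). The log2 fold change was -2.55 (SE 0.45, limma unadjusted p = 0.00116, adjusted p = 0.363). This size depends on the pseudocount, since with 0.1 FPKM in place of 1 it was -4.20 (limma unadjusted p = 0.00587), and the Gsk3sKO mean was 0.0669 times the Ctrl mean. Across the alternatives tried, the adjusted limma p lay between 0.236 and 0.742. Its share of the Syt17 total was 27.2%, 13% and 28.5% in Ctrl and 3.46%, 0% and 1.72% in Gsk3sKO (2-sided exact permutation test, p = 0.1, the smallest that 3 against 3 allow). From exon 3 on, ENSMUST00000203796 lies within exons of the main transcript ENSMUST00000081574. Its FPKM therefore depends on how fragments of shared exons were divided, which was not tested.

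The rest of Syt17 was divided differently in 1 library. The main transcript ENSMUST00000081574, with 1410 coding bases, was at 20.1, 31.3 and 27.2 FPKM in Ctrl, and 28.3, 28.5 and 0.193 FPKM in Gsk3sKO. ENSMUST00000203465, which has 1407 coding bases and begins just ahead of the third exon of the main transcript, was at most 0.669 FPKM in Ctrl, and 1.40, 0.478 and 27.4 FPKM in Gsk3sKO. The value of Gsk3sKO replicate 3 thus stood under the other transcript name while the gene total stayed at 28.2 FPKM. Without that library the log2 fold change of ENSMUST00000081574 went from -1.41 to 0.13. That of ENSMUST00000203465 went from 1.76 to 0.46.

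The 3 transcripts that were higher without overlap were those of Syt1, Syt2 and Syt7. The Syt1 transcript ENSMUST00000156979 begins at the inner start shown above at position 109009111, and its 8 exons and 1113 bases are annotated as a processed transcript without a coding sequence. It was at 123, 100.4 and 120 FPKM in Ctrl, and 149, 124 and 167 FPKM in Gsk3sKO. The highest Ctrl and lowest Gsk3sKO libraries differed by little, and the log2 fold change was 0.35 (SE 0.16, limma unadjusted p = 0.064, adjusted p = 0.842). Leaving out Gsk3sKO replicate 2 gave 0.46 (limma unadjusted p = 0.0289). The main coding transcript ENSMUST00000064054 was at 256, 310 and 274 FPKM in Ctrl and 288, 298 and 318 FPKM in Gsk3sKO, with a log2 fold change of 0.11. Only the first exon of ENSMUST00000156979, of 220 bases, lies outside the exons of ENSMUST00000064054, whose last exon of 3095 bases it lacks. How fragments of shared exons were divided between these transcripts was not tested. The difference in FPKM therefore cannot be assigned to the inner start. With protein-coding transcripts alone, an alternative chosen after the data were seen, the log2 fold change of the Syt1 total was 0.08.

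The Syt2 transcript of the upstream start, ENSMUST00000188842, was at 3.12, 2.69 and 2.39 FPKM in Ctrl, and 3.95, 4.28 and 5.35 FPKM in Gsk3sKO. All Gsk3sKO libraries were higher, with means of 2.73 ± 0.366 FPKM in Ctrl against 4.53 ± 0.732 FPKM in Gsk3sKO (SD, n = 3 each). The log2 fold change was 0.56 (SE 0.28, limma unadjusted p = 0.0873, adjusted p = 0.842), and the unadjusted p was 0.014 when limma's variances were not moderated. The transcript of the downstream start, ENSMUST00000121990, was at 5.51, 7.92 and 7.56 FPKM in Ctrl, and 10.1, 8.27 and 4.92 FPKM in Gsk3sKO. Its groups overlapped, and the share of the upstream transcript in the Syt2 total overlapped as well, from 23.5% to 35.7% in Ctrl and from 27.9% to 51.9% in Gsk3sKO. The last exon is annotated with 1943 bases in ENSMUST00000188842 and 5675 bases in ENSMUST00000121990. The difference in FPKM therefore cannot be assigned to the start site alone.

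The Syt7 transcript without the exon of 228 bases, ENSMUST00000076968, was at 6.87, 5.05 and 7.42 FPKM in Ctrl, and 8.84, 11.1 and 8.65 FPKM in Gsk3sKO. Its means were 6.45 ± 1.24 FPKM in Ctrl against 9.54 ± 1.38 FPKM in Gsk3sKO (SD, n = 3 each). The log2 fold change was 0.51 (SE 0.24, limma unadjusted p = 0.0748, adjusted p = 0.842), and the unadjusted p was 0.0475 when limma's variances were not moderated. The form with all 4 exons, ENSMUST00000169121, was at 26.0, 24.9 and 27.6 FPKM in Ctrl, and 31.7, 25.9 and 18.8 FPKM in Gsk3sKO, the widest spread being within the latter group. As a share of the Syt7 total, the form without the exon took 19.0%, 16.2% and 18.8% in Ctrl and 20.4%, 29.0% and 26.1% in Gsk3sKO. These shares did not overlap (2-sided exact permutation test, p = 0.1, the smallest that 3 against 3 allow). The forms also differ at the 3′ end, where the last exon is annotated with 4841 bases in ENSMUST00000076968 and 105 bases in ENSMUST00000169121, so the difference in FPKM cannot be assigned to the coding exon alone. The table lists 3 of the 15 Syt7 transcripts in GENCODE M21.

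**Figure D4:**
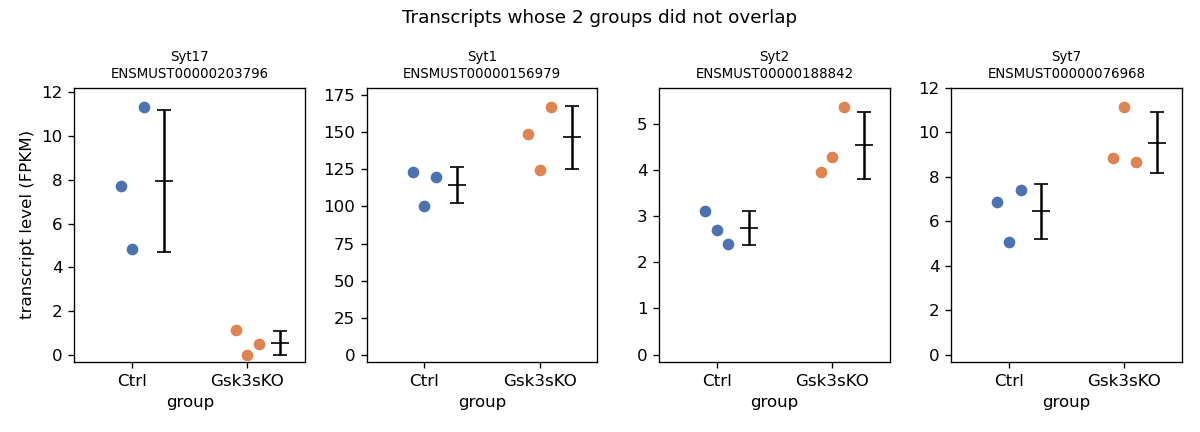
FPKM of the 4 tested synaptotagmin transcripts whose groups did not overlap, with 1 point per library and the mean ± SD of each group beside the points. The Syt17 transcript is lower in Gsk3sKO, at most 1.11 FPKM against at least 4.83 FPKM in Ctrl, and the transcripts of Syt1, Syt2 and Syt7 are higher.

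Syt3 and Syt6 had totals that were carried by different transcripts in different libraries of the same group. The 3 tested Syt3 transcripts encode the same 1761 coding bases and differ outside them. ENSMUST00000118962 was at 1.97, 10.2 and 12.5 FPKM in Ctrl, and 2.20, 0 and 6.25 FPKM in Gsk3sKO. ENSMUST00000120262 was listed above 0 in only 1 library of each group, at 7.37 FPKM in Ctrl replicate 1 and 10.1 FPKM in Gsk3sKO replicate 1. ENSMUST00000118831 reached 10.2 FPKM in Gsk3sKO replicate 2, where it was the whole Syt3 total, and was listed at 0 in Gsk3sKO replicate 3. The gene total of Syt3 stayed between 9.08 and 13.8 FPKM throughout, so its transcripts varied far more between replicates than their sum did. Of the 9 Syt6 transcripts 1 was tested, ENSMUST00000121834, at 0, 0 and 2.02 FPKM in Ctrl and 2.23, 2.82 and 0 FPKM in Gsk3sKO.

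**Figure D5:**
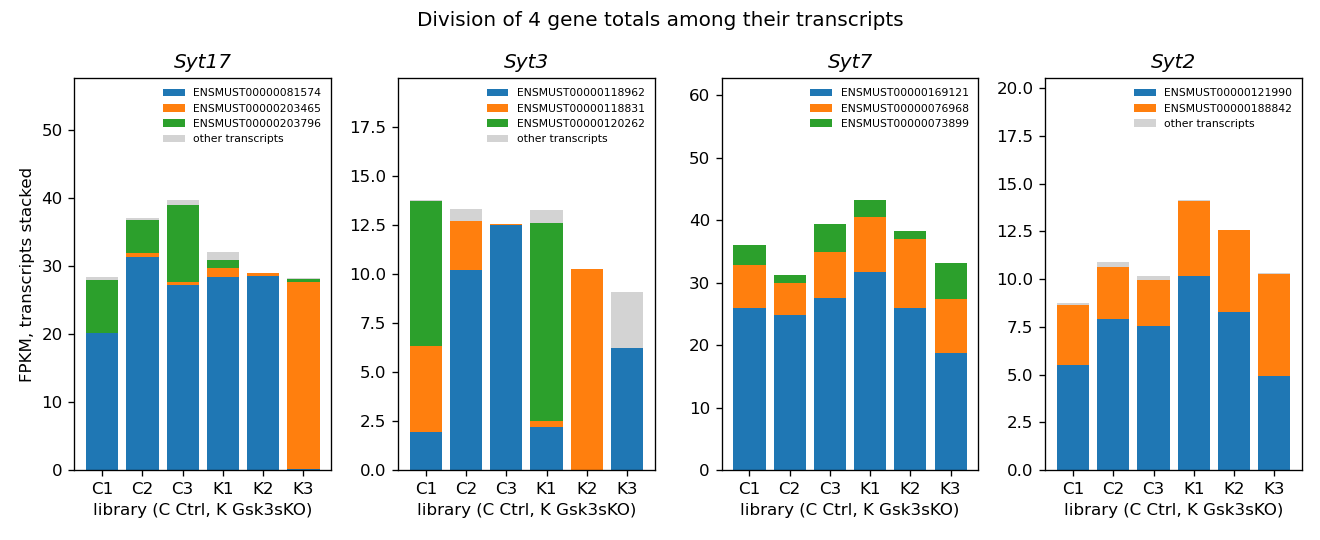
Stacked FPKM of the transcripts of Syt17, Syt3, Syt7 and Syt2 in each library, from Ctrl replicates 1 to 3 (C1 to C3) to Gsk3sKO replicates 1 to 3 (K1 to K3). The Syt3 total moves between 3 transcripts from library to library, and the Syt17 total of K3 stands almost wholly under ENSMUST00000203465.

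Syt4 and Syt13 have 1 listed transcript each, so their totals are the transcripts themselves. The main Syt11 transcript ENSMUST00000090945 was at 93.7, 106 and 122 FPKM in Ctrl and 121, 116 and 90.8 FPKM in Gsk3sKO. A second Syt11 form with a start further downstream, ENSMUST00000183267, ranged from 3.34 to 19.7 FPKM in Ctrl and from 6.22 to 11.9 FPKM in Gsk3sKO, within which the groups overlapped. The main Syt5 transcript ENSMUST00000065957 ranged from 83.8 to 96.6 FPKM in Ctrl and from 76.7 to 90.0 FPKM in Gsk3sKO. The short Syt5 form ENSMUST00000206023, of 397 bases, took between 21% and 27.5% of the Syt5 total over the 6 libraries. None of these 4 Syt5 and Syt11 transcripts had an unadjusted limma p under 0.05.

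Other members of the family and the proteins that synaptotagmins work with were read from lists. Of 21 other synaptotagmins and relatives 13 could be tested, and 0 had an unadjusted limma p under 0.05, against 6.56% of all gene totals. Rph3a, which binds Rab3 on synaptic vesicles, was at 120, 110 and 108 FPKM in Ctrl, and 124, 129 and 157 FPKM in Gsk3sKO, a log2 fold change of 0.27 (limma unadjusted p = 0.0863). Syt12 was at 11.2, 8.56 and 9.67 FPKM in Ctrl, and 8.04, 7.29 and 7.67 FPKM in Gsk3sKO, a log2 fold change of -0.31 (limma unadjusted p = 0.126). These were the 2 of 13 tested genes of that list whose groups did not overlap, a share near the 12% of all gene totals. The log2 fold change of Syt14 was -0.71 (limma unadjusted p = 0.0815). Syt9, named after its values were seen, lay between 0.931 and 4.4 FPKM over the 6 libraries.

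Of 19 partners in fusion 18 could be tested, again with 0 at an unadjusted limma p under 0.05, against 6.56% of all gene totals. These include the SNARE proteins that synaptotagmins act on, the complexins that clamp them and the Sv2 proteins that bind Syt1. Vamp2, the vesicle SNARE, was at 357, 346 and 390 FPKM in Ctrl, and 420, 399 and 425 FPKM in Gsk3sKO. All 3 Gsk3sKO libraries were higher, with a log2 fold change of 0.19 (limma unadjusted p = 0.173), and Vamp2 was the 1 of 18 without overlap, against 12% of all gene totals. Stx1a, a plasma membrane SNARE, was at 183, 169 and 141 FPKM in Ctrl, and 154, 147 and 125 FPKM in Gsk3sKO, with overlap and a log2 fold change of -0.21. The median log2 fold changes were 0.02 for the fusion partners and -0.05 for the other synaptotagmins and relatives.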

How the data were processed

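The authors deposited FPKM per transcript for 6 RiboTag RNAseq libraries. HISAT2 2.1.0, SAMtools 1.9 and StringTie 1.3.4d, with the GRCm38 build, are named in the submitters' processing notes. The authors' own fold changes, p-values and q-values, also deposited, were not used. No library's column was set aside (0 columns). Depth could not be recovered from the spacing of low values, so no counting interval is given.

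Gene totals were sums of transcript FPKM. Features with a mean of at least 1 FPKM over the 6 libraries were compared as log2(FPKM + 1), which understates changes of low genes, with limma 3.58.1 in R 4.3.3 (moderated, 2 groups, 95% intervals), with Benjamini-Hochberg adjustment over all features tested. Calls used an unadjusted p under 0.05. The code was tested on simulated data. Annotation was GENCODE M21.

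The members, lists and tests were chosen with earlier results of these data known. Named were all 10 members, their tested transcripts, up to 4 genes of each list by p or without overlap, and the 3 genes most like Syt1. Alternatives were another pseudocount, filter, scaling, variance estimate, a replicate block and leaving out each library.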

Additional observations from a re-analysis of the deposited data

How the results depend on the processing

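Unless named here, the member results kept their direction and their side of the threshold under the alternatives tried. With libraries rescaled by their median ratio, the log2 fold changes of the Syt11 total (0.0279) and of Syt1 ENSMUST00000105276 (0.0113) changed sign. Leaving out 1 library at a time gave ranges that crossed 0 for the totals of Syt5 (-0.13 to 0.0047), Syt6 (-0.37 to 0.48) and Syt11 (-0.087 to 0.11). The same held for Syt2 ENSMUST00000121990 (-0.10 to 0.36), Syt1 ENSMUST00000105276 (-0.19 to 0.24), Syt7 ENSMUST00000073899 (-0.36 to 0.43), Syt7 ENSMUST00000169121 (-0.23 to 0.13) and Syt17 ENSMUST00000081574 (-2.18 to 0.13). It also held for Syt11 ENSMUST00000090945 (-0.0685 to 0.15), Syt11 ENSMUST00000183267 (-0.82 to 0.31), Syt5 ENSMUST00000065957 (-0.10 to 0.0176), Syt5 ENSMUST00000206023 (-0.23 to 0.00672), Syt3 ENSMUST00000118831 (-1.22 to 0.53) and Syt3 ENSMUST00000120262 (-1.02 to 1.16). The cause was not tested.

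Member gene totals called numbered 0 to 1 when a library was left out, the 1 being Syt17 without Ctrl replicate 1. Member transcripts called numbered 1 to 2, the second being Syt1 ENSMUST00000156979 without Gsk3sKO replicate 2. Without moderation 3 were called, with Syt2 ENSMUST00000188842 and Syt7 ENSMUST00000076968 added, and with a minimum mean of 5 FPKM 0 of the 15 tested, since Syt17 ENSMUST00000203796 was not tested there. Over all features, leaving out 1 library gave 574 to 1175 gene totals and 894 to 1733 transcripts called. Without a filter 1917 of 69611 transcripts were called, and at a minimum mean of 5 FPKM 590 of 9662. Same-numbered libraries did not deviate together (correlations of -0.03, -0.01 and -0.08). Differently numbered pairs lay between -0.03 and 0.05, so this cannot show whether a number means a shared batch. With a replicate block 2 member transcripts (Syt1 ENSMUST00000156979 added), 821 gene totals and 1103 transcripts were called. With protein-coding transcripts alone, chosen after the data were seen, 0 member totals were called.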
